A study of Caenorhabditis elegans with 4 samples.

Results

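LIN-13 peaks on the arms of chromosome II are the binding regions of a tagged LIN-13 in Caenorhabditis elegans embryos whose midpoint lies below 4879000 or at or above 12020000 in WormBase WS180 coordinates. These limits are the borders at which the recombination rate of the chromosome changes. They were applied to positions alone and left 770 of the 5502 peaks of the list, 449 on the left arm and 321 on the right arm, with 544 peaks in the centre between them. The list as a whole holds 20.9% of the 26301 candidate regions that its q-values imply, a number explained with the read numbers further on. How many candidates lay on the arms is not known.

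Chromatin immunoprecipitation sequencing (ChIP-seq) was done on embryos of hermaphrodites of strain OP51, grown at 20 °C. OP51 is unc-119 (ed3) III and carries wgIs73, a transgene of lin-13::TY1::EGFP::FLAG together with unc-119 (+), made by biolistic transformation and outcrossed. All 4 libraries, 2 of ChIP DNA recovered with a goat antibody against GFP and 2 of input DNA, come from this strain. No library of an untagged strain or of a mock precipitation is among them. Whole embryos were used, so a peak can come from any cell type of the embryo. The authors combined both replicates into 1 list, so the spread between replicates is unknown and no test between conditions was possible. The intervals given are 95% intervals for counting error only. Neighbouring peaks are not independent, so the true uncertainty is wider.

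LIN-13 has zinc fingers and belongs to the synthetic multivulva genes of class B. This group acts with the Rb homologue LIN-35 to repress vulval fates and other developmental programmes. It binds the heterochromatin protein HPL-2 and is known as one of the factors that bring HPL-2 to chromatin. The chromosomes of C. elegans have no single centromere. Their arms recombine more often than their centres, are richer in repeats, and are rich in chromatin methylated at lysine 9 of histone H3.

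Both arms held more peaks per length than the centre, and with these borders the difference was larger among lower-ranked and narrow peaks than among top-ranked ones. The left arm had 92.03 peaks per Mb (83.7 to 100.9), the right arm 98.7 (88.2 to 110.1) and the centre 76.2 (69.9 to 82.9). The density ratio of both arms together to the centre was 1.24 (1.11 to 1.39). The q-values are those of the authors' peak caller and are used here to rank peaks, so that the strongest peak is the one with the smallest q-value. The 2751 peaks with the smallest q-values of the whole list of 5502, called top-ranked, were about as dense in the 3 regions, at 41.2 per Mb on the left arm, 44.6 on the right arm and 40.8 in the centre. Their ratio of arms to centre was 1.04 (0.891 to 1.22). Top-ranked peaks made up 44.9% of the arm peaks (41.4 to 48.5) and 53.5% of the centre peaks (49.2 to 57.7). Lower-ranked peaks numbered 50.8 per Mb on the left arm and 54.1 on the right arm, against 35.4 in the centre, a ratio of 1.47 (1.26 to 1.73).

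Peaks narrower than 100 bp showed the widest gap between arms and centre. There were 75 on the left arm, 50 on the right arm and 39 in the centre, which is 15.4 per Mb on each arm against 5.46. They made up 16.2% of the arm peaks (13.7 to 19.03) and 7.17% of the centre peaks (5.15 to 9.67). Without them the density ratio of arms to centre was 1.12 (0.997 to 1.26), an interval that reaches 1. For the right arm alone it was 1.18 (1.01 to 1.37), and for the left arm alone 1.08 (0.946 to 1.24). Lower-ranked peaks of 100 bp or more were still denser on the arms, at a ratio of 1.25 (1.05 to 1.50). Counted as base pairs covered, arms and centre were near each other, at 2.69% of the arm length and 2.57% of the centre. At the other end of the list, peaks with a q-value under 1e-10 numbered 50 on the left arm, 48 on the right arm and 77 in the centre. That is 10.2 per Mb (7.61 to 13.5), 14.8 (10.9 to 19.6) and 10.8 (8.51 to 13.5), with overlapping intervals.

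**Figure D1:**
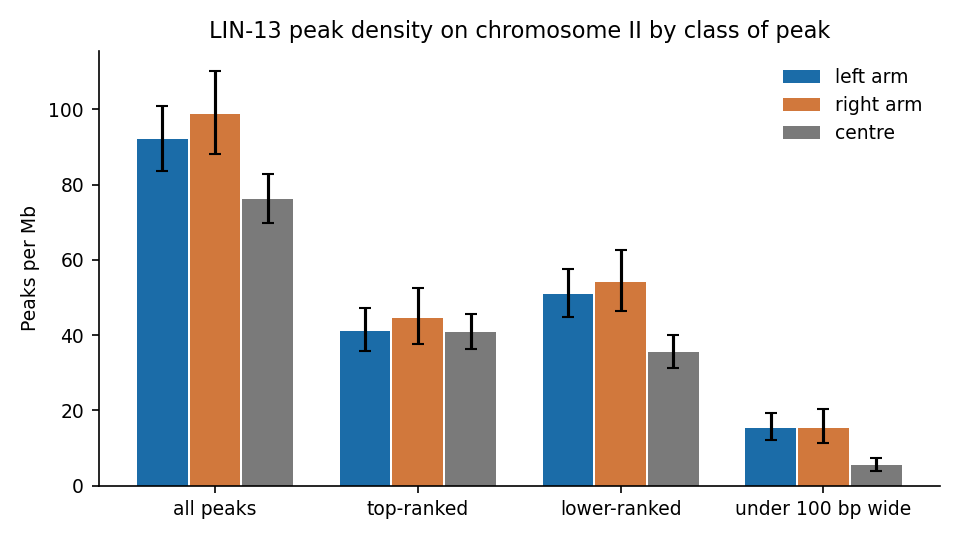
Peaks per Mb (vertical axis) on the left arm, the right arm and in the centre of chromosome II for 4 classes of peak; bars are densities and error bars exact Poisson 95% intervals. Top-ranked peaks stand between 40.8 and 44.6 per Mb in the 3 regions, whereas lower-ranked peaks and those under 100 bp are denser on both arms.

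The densities of the 2 arms did not differ beyond counting error. The ratio of left to right arm was 0.933 (0.806 to 1.08) for all peaks, 0.924 (0.743 to 1.15) for top-ranked peaks and 1.00 (0.69 to 1.46) for peaks under 100 bp. Such intervals hold 1 but do not show that the densities are equal. Within an arm the spread was far larger than this difference. Over a fixed grid of 500 kb, the 9 windows wholly on the left arm held 22 to 74 peaks with a median of 42. The 5 windows wholly on the right arm held 28 to 60 with a median of 53. In the centre 14 windows held 25 to 55 with a median of 38, so single windows of arms and centre overlap widely.

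The densest window of the left arm ran from 2000001 to 2500000, with 74 peaks, of which 46 were top-ranked. Its neighbour up to 3000000 held 69. Together these 2 windows carried 31.8% of the peaks of the left arm. Just before them, the window from 1500001 to 2000000 had only 22 peaks, the lowest count of any 500 kb window of the chromosome grid that lies within 1 region. The stretch from 2 to 3 Mb was picked out after its counts were known. Without it, the density ratio of both arms to the centre was 1.15 (1.03 to 1.30) and that of left to right arm was 0.799 (0.681 to 0.938). This stretch held 143 of the 449 peaks of the left arm, and the rest of that arm alone was not set against the centre. The densest window of the right arm ran from 14000001 to 14500000, with 60 peaks and 34 of them top-ranked.

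Peak density did not rise towards the ends. The outer 1 Mb held 79 peaks at the left end and 83 at the right end, against 95.4 per Mb on the rest of the left arm and 105.6 on the rest of the right arm. For both arms together the ratio of outer to inner density was 0.817 (0.683 to 0.973). This ratio was 1.03 (0.754 to 1.38) among peaks with a q-value under 1e-05, and 0.894 (0.743 to 1.07) without the stretch from 2 to 3 Mb. The interval also reached 1 among top-ranked peaks, without peaks under 100 bp, after merging at 500 bp, and with an outer zone of 500 kb or 2 Mb (ratios of 0.835 to 0.937), so the lower density near the ends is weakly supported. On both arms the step from 1 to 1.5 Mb from the end was dense, at 128 peaks per Mb on the left and 130 on the right. The step from 0.5 to 1 Mb held 78 per Mb on the left and 80 on the right. Top-ranked peaks made up 56.6% of the peaks in the outer 1 Mb of the right arm and 41.2% of those further in. On the left arm the same shares were 43.04% and 45.1%.

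**Figure D2:**
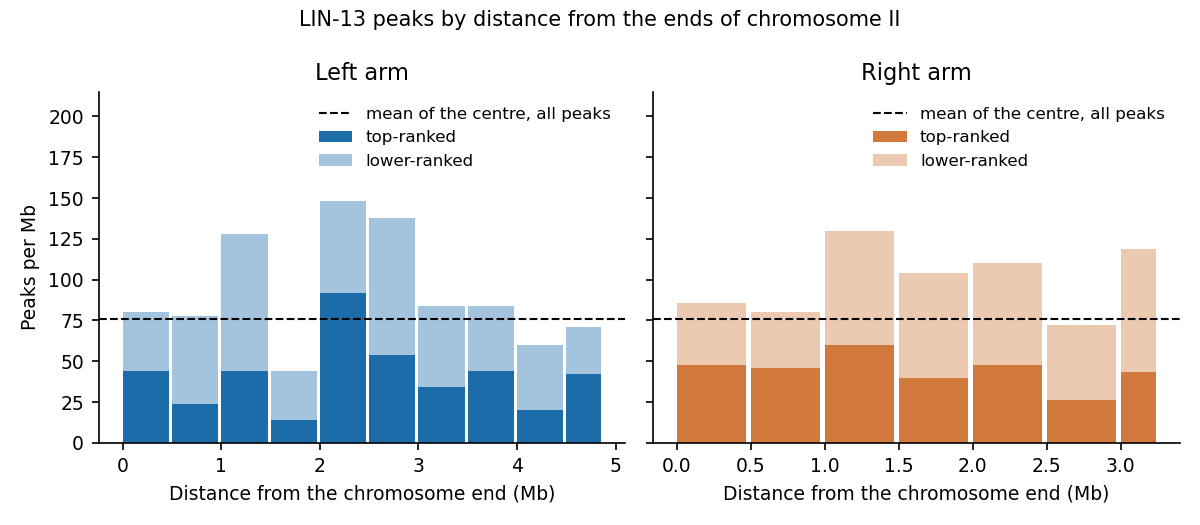
Peaks per Mb (vertical axis) in steps of 500 kb from each end of chromosome II (horizontal axis, Mb), with top-ranked peaks in full colour and lower-ranked peaks stacked above them in pale colour; the last step of each arm is shorter, and the dashed line is the centre's 76.2 peaks per Mb. The left arm peaks at 148 per Mb between 2 and 2.5 Mb and dips to 44 just before, while the right arm is highest, at 130, between 1 and 1.5 Mb.

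At the left end, peaks reached almost to the first position of the chromosome. The outermost peak on the left spanned 77 to 952 and was 876 bp wide (q-value 1.08e-08). The outermost on the right, 15273041 to 15273121, was 81 bp wide with a q-value of 0.00783. Its end served as the end of the chromosome, so how near peaks came to the true right end is not known. All distances from the right end are counted from there. At the borders, the last peak of the left arm was 17 bp wide at 4858080 to 4858096 (q-value 0.00395). The first of the centre followed 44072 bp further on, at 4902169 to 4902246 (q-value 0.00839). On the other side the last centre peak lay at 12006654 to 12006898 (q-value 8.89e-07) and the first of the right arm at 12023363 to 12023619 (q-value 0.00187), 16464 bp apart. Both borders therefore fell into stretches without peaks, and no peak straddled one.

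Arm peaks were narrower than centre peaks, though not among the stronger sites. The median width was 211 bp on the left arm (199 to 237), 241 bp on the right arm (213 to 275) and 295.5 bp in the centre (287 to 306). Among top-ranked peaks the medians were 335, 339 and 348 bp, with intervals of 304 to 374, 319 to 371 and 330 to 364 bp. Among lower-ranked peaks they were 160, 183.5 and 212 bp, with intervals of 143 to 173, 162 to 194 and 195 to 235 bp. For peaks with a q-value under 1e-10 the order was the opposite, with a median of 472 bp on the arms (399 to 557) and 423 bp in the centre (358 to 495), although the intervals overlap. The ratio of median widths, arms to centre, was 0.763 in the full list and 1.10 among peaks with a q-value under 1e-05.

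**Figure D3:**
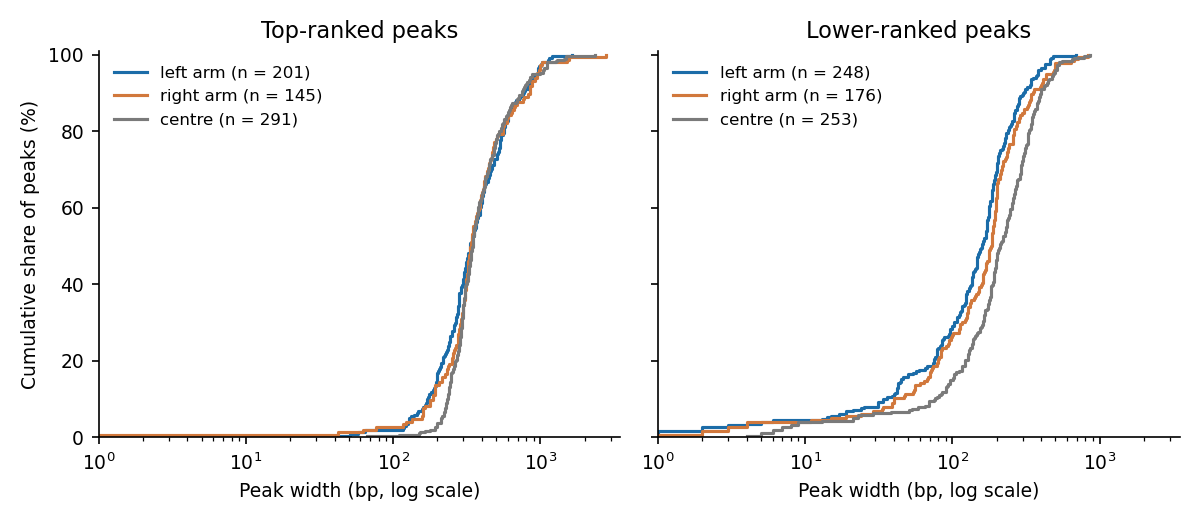
Cumulative share of peaks (vertical axis, %) against peak width (horizontal axis, bp, log scale) for top-ranked and lower-ranked peaks of the left arm, the right arm and the centre of chromosome II. The 3 curves run close together for top-ranked peaks (medians 335 to 348 bp), and the arm curves lie to the left of the centre curve for lower-ranked peaks (medians 160 and 183.5 against 212 bp).

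For a comparison with other chromosomes, arms were taken as the outer 25% of each at either end, since recombination borders were applied to chromosome II alone. Lower-ranked peaks were denser in these outer parts than in the middle on all 6 chromosomes, by 1.24 times on X to 1.96 times on III, with 1.50 on II. Top-ranked peaks were denser in the outer parts on 5 of the 6, with ratios of 1.48 on III, 1.31 on IV, 1.20 on II, 1.17 on I and 1.13 on X, and 0.988 on V. With these borders the top-ranked ratio of II had an interval of 1.03 to 1.41, so that its nearness to 1 depended on where the arms end. Outer peaks were the narrower ones on each chromosome. Peaks under 100 bp also made up a larger share of outer than of middle peaks on all 6. On II the shares were 15.8% and 8.04%, on V 16.6% and 5.19%, and on X 3.69% and 1.55%. The width ratio was lowest on V, at 0.70, and next lowest on II, at 0.779.

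The q-values also imply read numbers. When each q-value was multiplied by its place in the deposited list and divided by 26301, the outcome was the one-sided probability, at even odds, of a split of whole numbers at least as uneven. All 5502 peaks matched such a tail to within 1e-11 (natural log scale), and 0 did with 26301 changed by 1 either way. The larger whole number is read here as ChIP reads and the smaller as scaled input reads. Both are inferred values, and an error of 1 in the input reads is possible. A pair was fixed for each of the 770 arm peaks. Input may have been scaled by chromosome, which does not touch a comparison within chromosome II.

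Arm peaks rested on fewer reads than centre peaks and had higher implied ratios of ChIP to input. The median arm peak had 54 ChIP reads and 19 input reads, against 71 and 26 in the centre. The median ratio was 3.06 on the left arm (2.92 to 3.13), 2.83 on the right arm (2.73 to 3.00) and 2.69 in the centre (2.59 to 2.79). The median of both arms over that of the centre was 1.12 (1.04 to 1.19). It was 1.07 (0.987 to 1.16) without peaks narrower than 100 bp and 1.07 (0.994 to 1.16) without the stretch from 2 to 3 Mb. The interval held 1 in both of these cases. Where reads are few, only a high ratio passes the q-value limit, so peaks were also compared at like totals. From 50 to under 100 reads the median ratio was 2.63 on the arms (2.57 to 2.74) and 2.59 in the centre (2.47 to 2.74). From 100 to under 200 reads it was 2.97 on the arms (2.63 to 3.20) and 2.50 in the centre (2.33 to 2.63). The intervals overlapped below 50 reads, with medians of 3.40 and 3.11, and from 200 reads, with 3.86 (2.95 to 4.98) and 3.12 (2.57 to 3.65).

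High ratios were more common on the arms, where 89 of 770 peaks (11.6%) had 5 or more, against 33 of 544 (6.07%) in the centre. A ratio under 2 was found for 26 arm peaks (3.38%) and 59 centre peaks (10.8%). These shares were not taken at like totals, and the median total was 75 reads on the arms and 99 in the centre. With few reads a ratio under 2 cannot pass the q-value limit, so the shares alone do not show an arm trait. Input reads per kb, counted over each peak plus 200 bp, had a median of 41.5 on the left arm (40.4 to 42.7), 46.3 on the right arm (44.1 to 47.8) and 53.99 in the centre (52.5 to 55.3). ChIP reads per kb had medians of 124.1, 125.3 and 137.6. Both were lower on the arms than in the centre, and the ratio divides by input. Lower-ranked peaks were denser on the arms, where input was lower. Between the 2 arms, however, the left had the lower input and also fewer lower-ranked peaks, at 50.8 against 54.1 per Mb. The part of input in these densities and ratios was not tested.

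Peaks of the arms lay close together. A neighbour within 2 kb, measured from edge to edge, was found for 53.01% of peaks on the left arm (48.3 to 57.7), 49.5% on the right arm (43.9 to 55.1) and 38.8% in the centre (34.7 to 43.03). Denser peaks have nearer neighbours for that reason alone, and how much of the difference density accounts for was not tested. The nearest neighbour was within 500 bp for 147 arm peaks (19.09%) and 56 centre peaks (10.3%). Its median distance was 1791 bp on the left arm, 2040 bp on the right arm and 2850.5 bp in the centre. The difference of the shares with a neighbour within 2 kb, arms minus centre, was 12.8 percentage points. It fell to 5.81 without peaks narrower than 100 bp, to 7.84 after merging at 500 bp and to 7.47 without the stretch from 2 to 3 Mb. Among top-ranked peaks alone it was 15.9, and with q-values under 1e-05 it was 17.8. With the outer 25% at either end as arms, the share with a neighbour within 2 kb was higher in the outer parts than in the middle on chromosomes I to V. On X it was lower, at 22.4% against 25.2%.

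Long empty stretches also occurred. The longest on the left arm was 123.9 kb, from 1930710 to 2054584, and it ended at the strongest peak of that arm. Stretches of 100.9 kb (3157623 to 3258502) and 97.8 kb (2343296 to 2441059) followed. On the right arm no stretch exceeded 67.8 kb (12519805 to 12587576). In the centre the longest was 102.1 kb (9787983 to 9890114). The left arm thus held both the fullest windows and the longest empty stretch of the chromosome.

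Runs, defined as chains of peaks with gaps of at most 2 kb, were more frequent on the arms. Runs of 3 or more peaks numbered 30 on the left arm, 20 on the right arm and 20 in the centre, or 6.15 per Mb on each arm and 2.80 per Mb in the centre. They held 30.7% of the peaks of the left arm (26.5 to 35.2), 22.7% of the right arm (18.3 to 27.7) and 16.4% of the centre (13.3 to 19.7). Runs of 5 or more numbered 9 on the left arm, 3 on the right arm and 5 in the centre. Runs of at least 10 peaks numbered 4 on the left arm, 0 on the right arm and 1 in the centre. With the outer 25% at either end as arms, runs of 3 or more held 27.9% of outer and 16.1% of middle peaks on II. The outer share was also the higher on I (13.8% and 9.43%), III (17.9% and 0%), IV (19.1% and 7.50%) and V (22.99% and 11.8%). On X it was the lower, at 4.49% against 9.01%. Of the left arm's run peaks, 52.2% lay between 2 and 3 Mb. Without that stretch, runs of 3 or more held 22.2% of the arm peaks (18.98 to 25.6), against 27.4% with it, and the difference from the centre was 5.81 in place of 11.04 percentage points. Without peaks narrower than 100 bp that difference was 4.70 percentage points.

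The longest run spanned 12.5 kb, from 2449830 to 2462314, and held 12 peaks that covered 27.4% of it. Its peaks were 13 to 836 bp wide with gaps of 299 to 1485 bp. In its middle stood a peak with 221 ChIP reads against 40 input reads, from 2455966 to 2456801 (q-value 2.08e-29). The other 11 peaks had q-values of 1.64e-08 or larger. Of the 12 peaks 6 were top-ranked.

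A second run, of 11 peaks from 1320451 to 1331727, opened with its strongest member. That peak, 1320451 to 1320849, was 399 bp wide, had a q-value of 5.55e-39 and showed 211 ChIP reads against 20 input reads. Its ratio of 10.6 was the highest on the left arm among peaks of at least 100 reads. The next best q-value in the run was 1.39e-09, at 1325058 to 1325877.

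The run from 2245672 to 2253183 was built differently, with 10 peaks in 7.51 kb and 9 of them top-ranked. The 9 peaks up to 2250477 were separated by gaps of 213 to 521 bp. A gap of 1565 bp then led to a peak of 1141 bp at 2252043 to 2253183 with a q-value of 9.47e-31. The smallest gap anywhere on chromosome II was 202 bp, and the peak at 2249085 was 1 bp wide. Whether the 9 peaks are separate sites was not tested. Implied ratios in this run were even, from 3.71 to 6.33 with a median of 5.35. The peaks summed to 803 ChIP reads and 151 input reads. After it no peak followed for 77666 bp. One more run of 10 peaks, from 2502733 to 2511413, is named because it ties in length. Its best q-value was 2.23e-13 and its median ratio 4.52, and the next peak lay 47821 bp on.

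**Figure D4:**
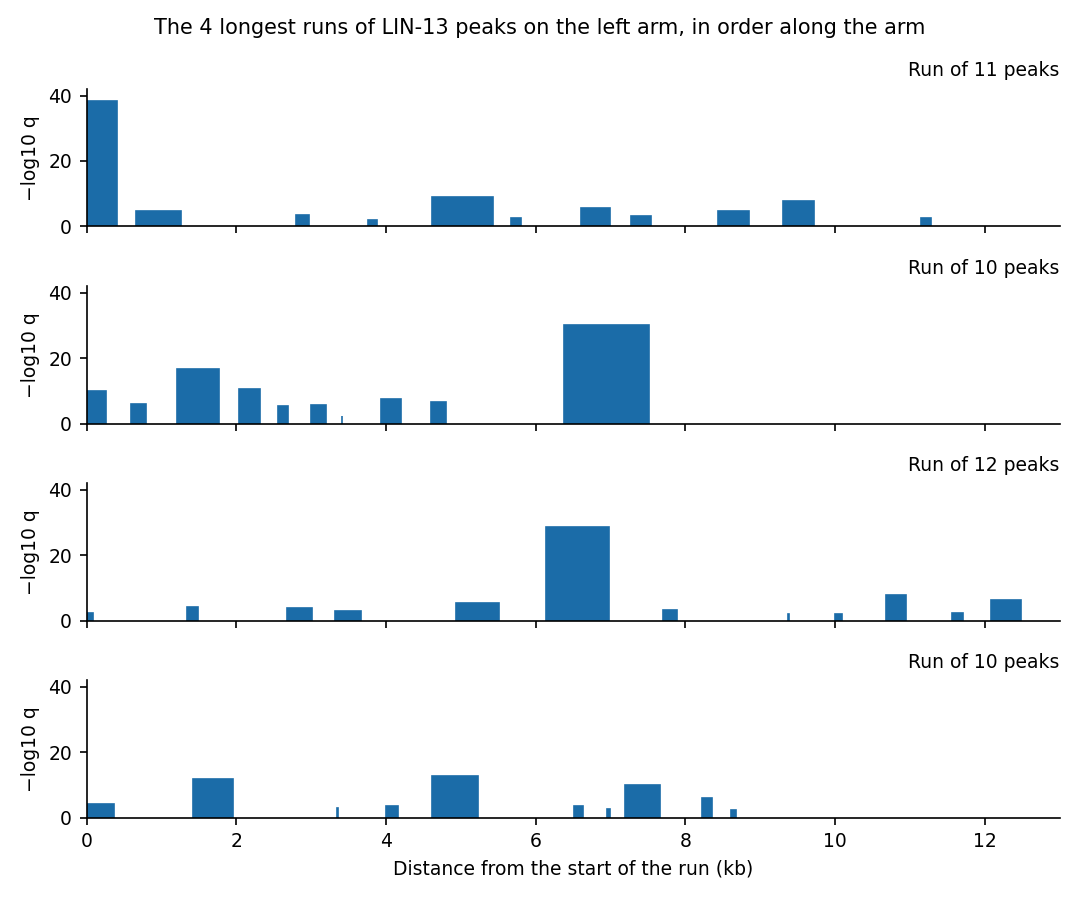
The 4 runs of 10 or more peaks of the left arm, each from its own start (horizontal axis, kb); every bar is a peak, its breadth the peak's width and its height −log10 of the deposited q-value. The runs of 11 and 12 peaks each hold 1 tall peak among low ones, and in the first run of 10 peaks, 9 closely spaced peaks are followed by a tall, broad one.

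On the right arm the longest runs held fewer peaks. A run of 6 peaks from 13734444 to 13739682 covered 57.99% of its 5.24 kb and included a peak of 1507 bp at 13736909 to 13738415 with a q-value of 6.77e-20. Its implied ratios were low, from 2.00 to 2.95. Another run of 6 lay 8382 bp before it, from 13720359 to 13726061, with a best q-value of 7.38e-08. The third, of 5 peaks, ran from 13193499 to 13199994 with a best q-value of 2.29e-09.

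Run peaks of the left arm had smaller q-values and higher ratios than its single peaks. On the left arm 84 of 138 peaks in runs of 3 or more were top-ranked (60.9%, 52.2 to 69.06), against 74 of 211 single peaks (35.07%, 28.6 to 41.9). On the right arm the shares were 49.3% (37.4 to 61.3) and 41.98% (34.3 to 49.97). In the centre they were 49.4% (38.7 to 60.2) and 55.3% (49.7 to 60.7). The median implied ratio of run peaks was 3.40 on the left arm (3.10 to 3.58), 2.95 on the right arm (2.63 to 3.39) and 2.29 in the centre (2.13 to 2.46). For single peaks it was 2.79, 2.77 and 2.88, with overlapping intervals. In the centre, run peaks thus had the lower median. Whether the regions differ in this was not tested beyond these intervals. The ratio divides by input. Input reads per kb of run peaks had medians of 37.4 on the left arm, 47.01 on the right arm and 63.8 in the centre. ChIP reads per kb of run peaks had medians of 127.3, 126.8 and 145.5. Single peaks of the left arm had medians of 44.8 input and 123.2 ChIP reads per kb. The part of input in the ratios was not tested.

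The left arm's pattern was not carried by its longest runs alone. With the 43 peaks of the 4 runs of 10 or more left out, 56 of the remaining 95 run peaks (58.9%, 48.4 to 68.9) were top-ranked and their median ratio was 3.33 (3.00 to 3.57). With the stretch from 2 to 3 Mb left out, the ratio of medians between run and single peaks of the left arm was 1.11 (0.896 to 1.24), against 1.22 (1.06 to 1.37) with it. Without peaks narrower than 100 bp it was 1.12 (0.959 to 1.36), so the interval held 1 in both cases.

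**Figure D5:**
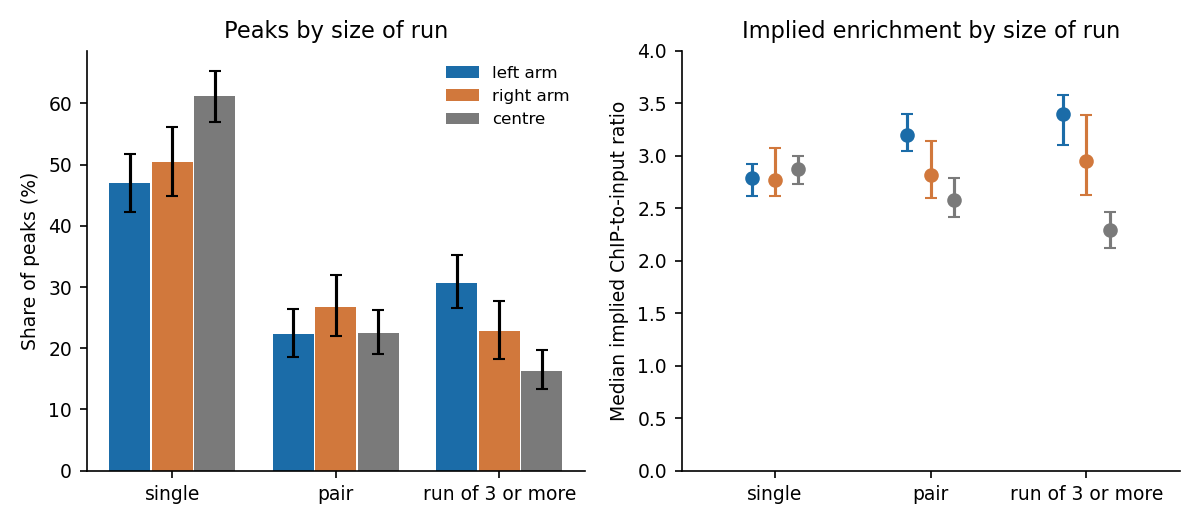
Left panel, share of peaks (%) that were single, in pairs or in runs of 3 or more, with Clopper-Pearson 95% intervals; right panel, median implied ratio of ChIP to input reads in the same classes, with order-statistic 95% intervals. Single peaks have like ratios in the 3 regions (2.77 to 2.88), and for runs the left arm stands at 3.40 and the centre at 2.29.

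Of the 100 peaks with the smallest q-values in the whole list, 6 lay on the left arm, 7 on the right arm and 12 in the centre of II. Both arms together thus held 13 of these 100 and 770 of all 5502 peaks, and the centre 12 and 544. Per Mb that is 1.60 on the arms and 1.68 in the centre. The strongest peak of the right arm, at 14249144 to 14251947, was also the first of the list, with 1010 ChIP reads against 203 input reads. It did not stand alone. A peak of 690 bp with a q-value of 1.02e-16 lay 590 bp before it, at 14247864 to 14248553, and one of 34 bp with a q-value of 0.00532 lay 431 bp after it. A run of 3 more peaks, from 14242010 to 14244825, ended 3038 bp before this group.

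The second site of the right arm, from 14404887 to 14405829, showed 450 ChIP reads against 82 (q-value 1.48e-59). Peaks of 758 and 819 bp followed it after gaps of 516 and 264 bp, with q-values of 3.91e-09 and 8.48e-11. The next 3 sites of that arm were at 13334883 to 13335857 (q-value 8.49e-41), 14804166 to 14804837 (1.25e-38) and 15025278 to 15026299 (8.34e-37). In this order the 5 sites lay 1022.6, 867.8, 1937.8, 468.6 and 247.3 kb from the end of the chromosome. The outer 1 Mb held 83 of the 321 peaks of the arm, and whether strong sites gather there was not tested. The widest peaks of the right arm after the first were 1557 bp at 15255740 to 15257296, which lay 16.6 kb from the end, and the one of 1507 bp in the run of 6.

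On the left arm the strongest peak was also the widest, at 2054585 to 2056222, with 1638 bp, a q-value of 2.65e-45 and 319 ChIP reads against 52. It had no neighbour within 2 kb. The second, from 4376364 to 4377244, showed 328 reads against 66 (q-value 2.28e-40), and the next peak lay 47704 bp further on. The third opened the run of 11. Next came the peaks at 410513 to 411515 (q-value 2.90e-33) and at 456360 to 457480 (9.81e-33), both in the outer 500 kb of the arm. The latter belonged to a run of 5 peaks up to 463366, all of them top-ranked, with implied ratios of 3.53 to 5.39. That run also held the second widest peak of the arm, 1209 bp at 460410 to 461618.

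Short sites with high implied ratios were found on both arms. Among arm peaks of at least 100 reads, the next highest ratio after the peak at 1320451 was 10.3, at 12778336 to 12778656, with 124 ChIP reads against 12. Ratios of 8.25 at 14561595 to 14561893, 8.10 at 216553 to 216949, 7.75 at 14349438 to 14349749 and 7.50 at 285680 to 285985 followed. These 5 were between 299 and 397 bp wide and had no neighbour within 2 kb. A higher ratio, 28 against 1 read, belonged to a peak of 42 bp at 14762662 to 14762703. It rests on few reads and was picked after its value was seen.

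Genes at these positions were not assigned, and no sequence is shown, because no genome or annotation of WormBase WS180 was used here.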

How the data were processed

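Per the file headers, the authors called peaks with PeakSeq on WormBase WS180 and deposited for each peak its limits and its q-value (an adjusted p-value of ChIP against input), in 1 list for both replicates. The sources used here do not give the aligner, the caller's version, read filters or read numbers per library, so the depth per sample is unknown. All q-values were under 0.01. Peaks were assigned by midpoint, and the length of chromosome II was taken as the end of its last peak, 15273121. A gap runs from the end of a peak to the start of the next. No chance test was run. Densities carry exact Poisson intervals, density ratios exact conditional binomial intervals, shares Clopper-Pearson intervals and medians order-statistic intervals, each at 95%. Bounds of a ratio of medians combine the opposite bounds of both medians. Read numbers were inferred by matching q-values to exact binomial tails, and the code was tested on simulated data.

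Named are the 5 strongest and 3 widest peaks of each arm, its 3 longest runs, its outermost peak, the peaks beside each border, the densest 500 kb window, and the 3 highest implied ratios among peaks of at least 100 reads. Members, lists and measures were chosen with earlier results of these data known. Alternatives were stricter q-values, merging, narrow peaks left out, covered base pairs, other borders, other distances and, chosen after seeing the data, the stretch from 2 to 3 Mb left out. The planned naming of genes was not run, as no annotation of this build was used. Python 3.11.15 with numpy 2.4.6, scipy 1.17.1, pandas 2.3.3 and matplotlib 3.10.9 was used.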

Additional observations from a re-analysis of the deposited data

How the results depend on the processing

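Of 8 results with alternatives, the ratios of density and of median width between left and right arm stayed within their counting intervals in all but 1 case, the density ratio of 0.799 without the stretch from 2 to 3 Mb. The arms-to-centre density ratio, 1.24 as deposited, was 1.04 with top-ranked peaks only, 1.01 with q-values under 1e-05 and 1.05 as covered base pairs. It was 1.35 with arms as the outer 25% at either end and 1.26 without the outer 500 kb. The ratio of outer to inner density turned from 0.817 to 1.03 with q-values under 1e-05, and the width ratio of arms to centre turned from 0.763 to 1.10. That width ratio was 0.963 with top-ranked peaks and 0.875 without peaks narrower than 100 bp. The share of arm peaks with a neighbour, 51.6%, was 35.8% with top-ranked peaks, 31.8% with q-values under 1e-05, 44.03% without narrow peaks, 41.05% after merging at 500 bp, and 46.3% without the stretch from 2 to 3 Mb. The share in runs, 27.4%, was 16.2%, 12.6%, 22.3%, 19.5% and 22.2% in the same order. Fewer peaks, or closer ones merged, leave fewer neighbours by construction. Limits of 1 and 5 kb in place of 2 kb gave 35.2% and 73.8% with a neighbour, and 13.1% and 56.4% in runs. The top-ranked share, 44.9%, was 52.4% without narrow peaks, and 12.7% of arm peaks had a q-value under 1e-10. The cause of the other changes was not tested. No paired analysis was possible because the list holds 1 value per peak for both replicates together, so neither could be left out. The depth is unknown, and a region outside the list may have been missed for want of reads.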
